A study of Mus musculus with 8 samples.

Results

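The heat shock proteins and J-domain chaperones form the protein folding machinery examined here. The members were rows chosen by gene symbol. The symbol was Dnaja, Dnajb or Dnajc and a number with nothing after it. Otherwise it began with Hspa, Hspb, Hspd, Hspe or Hsph and a number, or with Hsp90. This choice by name took 70 of the 32531 genes in the count tables, and 58 of the 70 had enough reads to be among the 12467 genes tested. The libraries hold RNA bound to tagged ribosomes from the dorsal striatum (4 libraries) and the nucleus accumbens (4 libraries) of untreated mice older than 20 months. All carried Drd1-EGFP/Rpl10a (CP73), a transgene in which the dopamine D1 receptor gene's promoter drives a ribosomal protein, L10a, that carries the fluorescent tag EGFP, and region was the only labelled difference between the groups. Polysomes were pulled down with anti-EGFP antibodies, a step meant to enrich RNA of cells that use that promoter, above all the direct-pathway spiny projection neurons. The labels do not say whether a library came from 1 animal or a pool, so the tests measure only the spread between these samples. Unpurified input was not analysed here, and neither were young animals.

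HSP70 chaperones bind short hydrophobic stretches of unfolded proteins and release them in a cycle driven by ATP. J-domain proteins bring them clients and speed ATP hydrolysis, HSP110 proteins exchange the nucleotide, and HSP90 finishes the folding of kinases, receptors and other clients. Separate members of the same families work in the cytosol, the endoplasmic reticulum (ER) and mitochondria, and small heat shock proteins hold unfolded proteins without ATP. In neurons the constitutive members predominate, and particular J-domain proteins serve synaptic vesicles and clathrin coats.

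The smallest and largest gene count totals were 7466970 and 10363145 among dorsal libraries, and 10831937 and 12639641 among accumbens libraries. Reads that the counting did not assign to a gene made up 27.1% to 33.8% of each dorsal library and 35.5% to 40.6% of each accumbens library. This share thus runs along with region, and its part in the comparison was not tested. The 6 markers of D1 projection neurons were all detected and summed to 1215 to 1411 CPM (a gene's counts relative to the scaled total of its library) in dorsal libraries and 1176 to 1421 CPM in accumbens libraries. The similar sums hide opposite differences, since 2 of the 6 markers had higher and 4 lower estimates in accumbens. Pdyn had 161 to 247 CPM in dorsal and 381 to 472 CPM in accumbens libraries (edgeR adjusted p = 0.00037). Ebf1 had 94.9 to 106 and 29.3 to 54.0 CPM (edgeR adjusted p = 0.00086). The 6 markers shared by all projection neurons summed to 7384 to 8691 CPM in dorsal and 4618 to 5182 CPM in accumbens libraries, and the 5 markers of D2 projection neurons to 218 to 328 and 620.0 to 898 CPM. The sums of 9 astrocyte markers were 199 to 379 and 258 to 705 CPM, and those of 8 oligodendrocyte markers 124 to 197 and 129 to 327 CPM. The 9 endothelial and mural markers summed to 5.68 to 82.5 and 8.53 to 178.5 CPM, and the 5 interneuron markers to 32.5 to 74.4 and 53.5 to 82.7 CPM. None of the 8 microglial and 5 ependymal markers had enough reads to be tested, and C1qa and Tmem212 were at 0 in all libraries. Dorsal 3 and accumbens 2 stood furthest from the rest, with median Spearman correlations of 0.935 and 0.927 across genes.

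Promoter windows from RefSeq (GRCm38.p6, 250 bases before to 50 after the annotated start) were found for 57 of the 70 members, and the stretches shown are those that hold the letters for which stress-induced chaperone genes are known. The heat shock element is the binding site of HSF1 and is built from GAA units in alternating orientation, each parted from the next by any 2 bases. Its 2-unit form was searched as GAANNTTC (N is any base), which reads the same on both strands, and not in the order with TTC first. The form with 3 units was searched on both strands, and every 3-unit match holds a 2-unit match. The ER stress element, at which ATF6 acts, was searched on both strands as CCAAT and CCACG separated by 9 bases. Capitals mark matches on either strand, each sequence reads 5′ to 3′ along its gene, and stretches over an annotated exon are kept to 30 bases.
Hspa5: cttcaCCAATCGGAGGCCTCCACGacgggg
Hsp90b1: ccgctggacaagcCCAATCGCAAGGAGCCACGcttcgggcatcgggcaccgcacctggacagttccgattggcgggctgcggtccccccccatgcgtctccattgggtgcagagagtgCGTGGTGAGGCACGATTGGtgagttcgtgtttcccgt
Dnajc3: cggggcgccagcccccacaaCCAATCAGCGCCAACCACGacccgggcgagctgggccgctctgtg
Hspe1: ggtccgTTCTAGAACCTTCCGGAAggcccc
Dnajb6: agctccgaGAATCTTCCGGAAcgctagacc
Hspa1a: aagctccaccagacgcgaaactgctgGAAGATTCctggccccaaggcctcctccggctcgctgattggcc
Hspa1b: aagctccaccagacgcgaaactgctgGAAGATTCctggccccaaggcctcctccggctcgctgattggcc
Hspb1: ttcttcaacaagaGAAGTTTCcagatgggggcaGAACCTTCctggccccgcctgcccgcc

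The stretches lie at chr2:34772020-34772049, plus strand for Hspa5, chr10:86705515-86705669, minus strand for Hsp90b1, and chr14:118937807-118937871, plus strand for Dnajc3. The Hspe1 stretch is chr1:55088053-55088082, plus strand, and that of Dnajb6 is chr5:29735844-29735873, plus strand. Those of Hspa1a and Hspa1b are chr17:34972217-34972286, minus strand, and chr17:34959299-34959368, minus strand, and that of Hspb1 is chr5:135887789-135887848, plus strand. The ER stress element was found in 3 of 57 member windows (5.26%), those of Hspa5, Hsp90b1 and Dnajc3, against 0.137% of the windows of 27025 genes. Hsp90b1 held it in both orientations. The 3-unit heat shock element was found in 4 of 57 members (7.02%), namely Dnajb6, Hspd1, Hspe1 and Hsph1, against 0.662% of all genes with a window. In Hsph1 the match lay after the annotated start, at 15 to 27 bases from it, or 36 to 48 bases from a second annotated start. Hspd1 and Hspe1 lie head to head and share the letters of their match, so they are not independent. The 2-unit form in the order searched was found in 13 members (22.8%), against 9.04% of all genes. The 70 printed bases of Hspa1a and Hspa1b are identical. A match is a description of the letters and not evidence of binding.

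Between the regions, no heat shock protein or J-domain gene passed the test in either direction. This 0 of 58 stands beside 464 of 12467 genes called in all (3.72%), of which 1.60% of tested genes were called higher and 2.12% lower in accumbens, by edgeR's quasi-likelihood test with a Benjamini-Hochberg adjusted p under 0.05. At an unadjusted p under 0.05 there were 4 members (Dnajb4, Dnajc24, Hspa12a and Dnajb9), where 14.8% of all tested genes passed. DESeq2 called 1 member, Dnajb4, and limma-voom none, where they called 6.26% and 4.17% of the genes they tested. The log2 fold change of accumbens over dorsal striatum was positive in 32 members and negative in 26, with a median of 0.06, and its median over all tested genes was 0.02. In these purified samples, fewer contributing cells and less RNA per cell cannot be told apart.

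**Figure D1:**
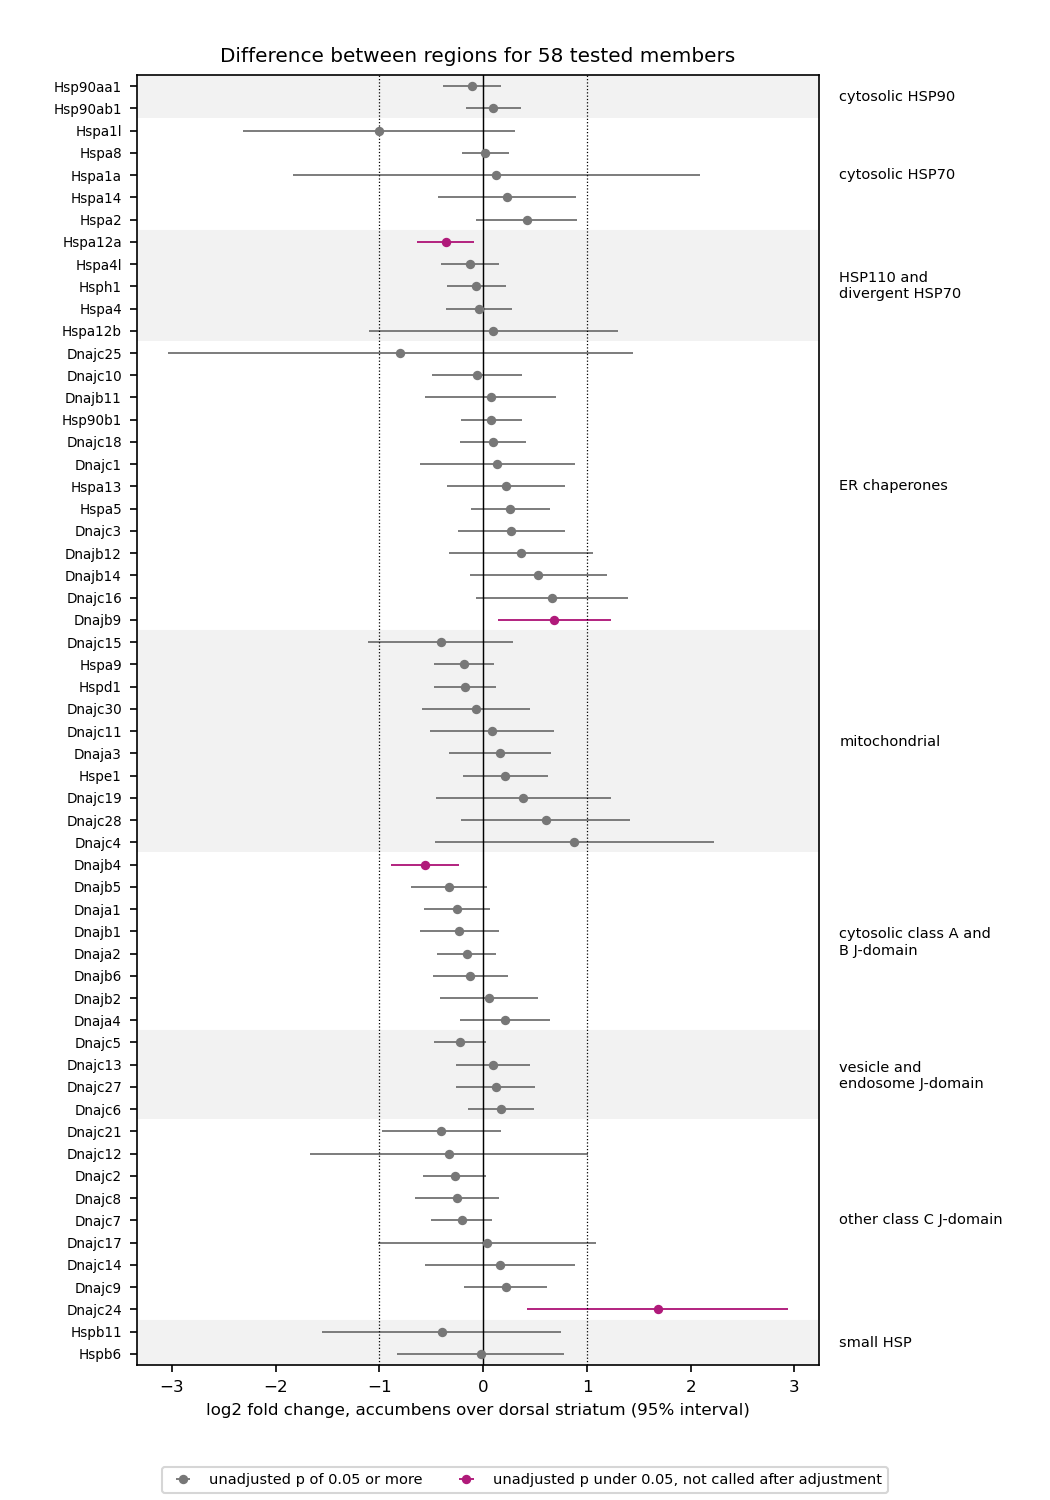
Log2 fold change of accumbens over dorsal striatum (x axis) for the 58 tested members (y axis, by role), with points for edgeR estimates and lines for 95% intervals; the dotted lines mark a 2-fold difference. Intervals of 42 of the 58 lie within 2-fold, and the 4 coloured members had an unadjusted p under 0.05 but were not called.

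How large a difference the data still allow depends on abundance. The 95% interval of the fold change lay within 2-fold in either direction for 42 of 58 members (72.4%, against 48.6% of all tested genes) and within 1.5-fold for 21 (36.2%, against 18.8%). Among the 26 members averaging 50 CPM or more, all 26 lay within 2-fold (100%, against 91.1% of the 3704 tested genes of that abundance) and 19 within 1.5-fold (73.1%, against 54.2%). The widest bounds among these 26 were a ratio of 0.542 and a ratio of 1.56. Of the genes at that abundance, 8.10% were called. For the other 32 tested members the bounds reached from 0.121 to 7.66, so a difference of several-fold was not detectable for the rarest of them.

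By level, the family was led by a few cytosolic chaperones. Members took 1.01% ± 0.110 of gene counts in dorsal striatum and 1.02% ± 0.0214 in accumbens (mean ± SD, n = 4 each). Hsp90ab1, Hspa8, Hsph1 and Hsp90aa1 together held 48.2% ± 2.71 of the members' counts in dorsal striatum and 49.99% ± 1.76 in accumbens. Per kilobase of exon, the 8 members of the highest level were the same 8 in both regions: Hsp90ab1, Hspa8, Hsp90aa1, Hsph1, Hspd1, Hsp90b1, Hspa4 and Dnaja2. The order depends on how length is counted. A second count took the longest transcript in place of all exons, and of it only the share of 50-base windows found in no other gene. On that count, over all libraries, Dnaja2 ranked 13 of 70, Hspe1 moved from rank 17 to 8 and Dnajb4 from rank 22 to 11. Dnaja2 and Dnajb4 have 0% of their windows in other genes. The length of Dnajb4 went from 8765 exon bases to a transcript of 2464.

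**Figure D2:**
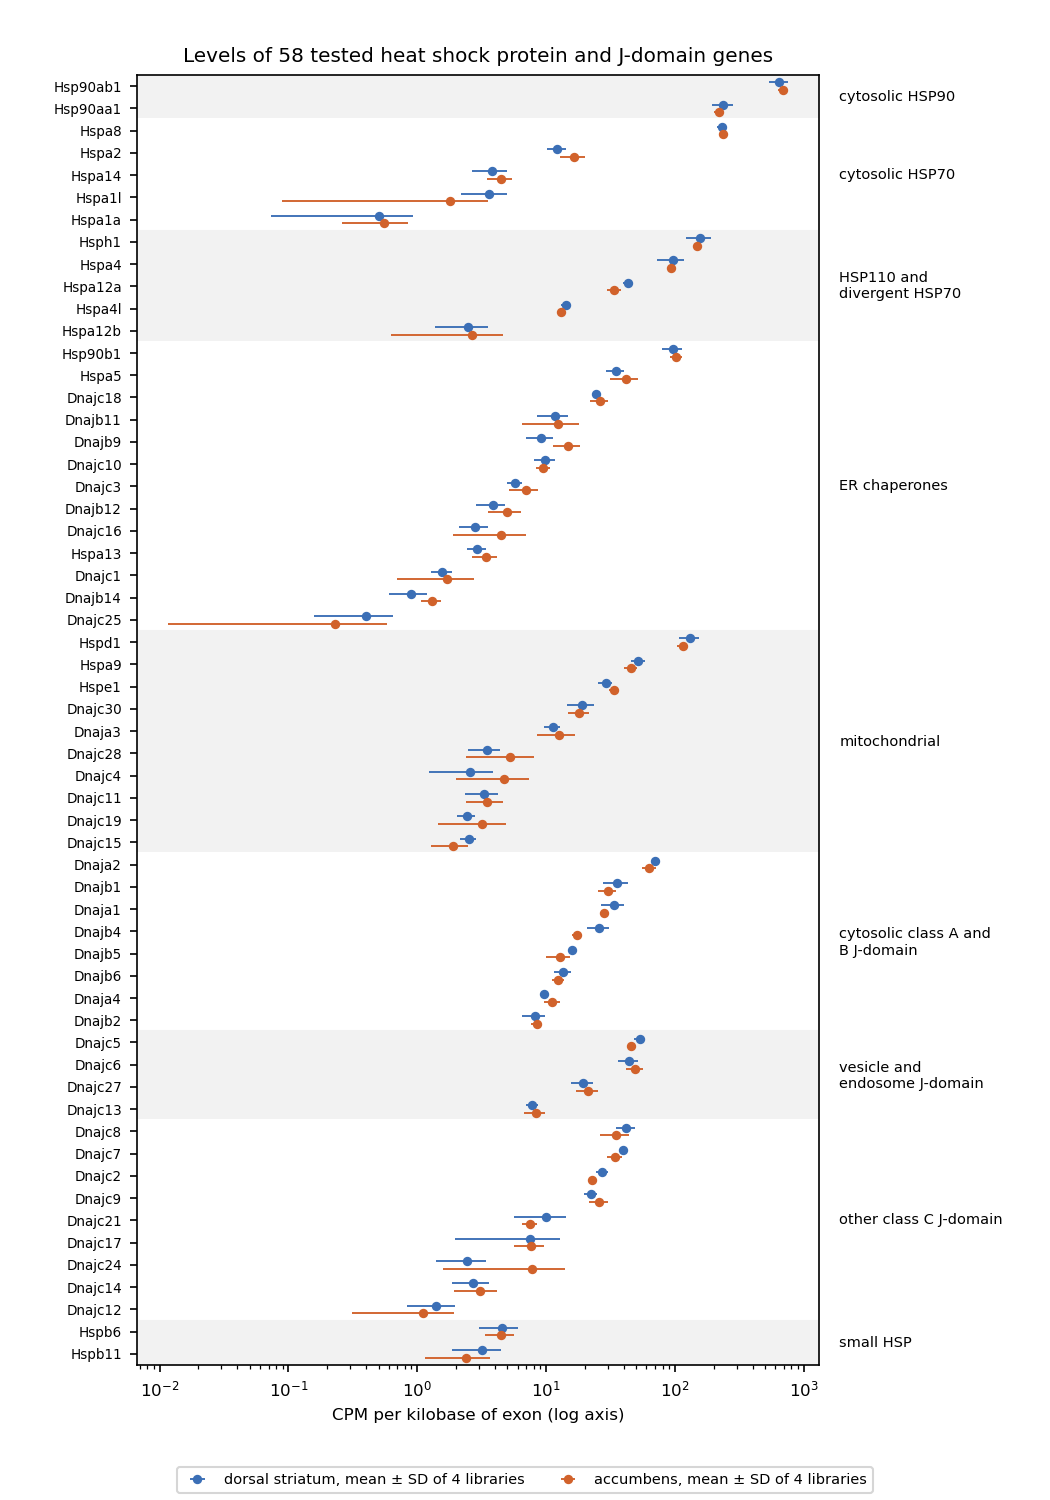
Level in CPM per kilobase of exon (x axis, log scale) of the 58 tested members (y axis, by role), as the mean and SD of 4 libraries in each region. Lower bars are clipped at 95% of the mean where the SD reaches it. Hsp90ab1 stands highest, at 643 in dorsal striatum and 688 in accumbens.

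The cytosolic HSP90 genes carried the most reads (gene positions are those of GRCm38). Hsp90ab1 (chr17:45567775-45573271, minus strand), the constitutive form, had 2092, 2099, 2088 and 1438 CPM in dorsal libraries 1 to 4 and 1866, 2013, 2319 and 2051 CPM in accumbens libraries 1 to 4. Dorsal 4 was the lowest of all libraries and the regions overlapped, with a log2 fold change of 0.10 ± 0.13 (SE; 95% interval -0.17 to 0.36; edgeR adjusted p = 0.806). Hsp90aa1, the stress-inducible form, had 884, 962, 1140.3 and 727 CPM in dorsal and 905, 745, 914 and 886 CPM in accumbens libraries. Its regions overlapped too, and its log2 fold change was -0.11 ± 0.13 (95% interval -0.39 to 0.18). Per kilobase, Hsp90ab1 stood at 643 ± 109 CPM in dorsal striatum and 688 ± 62.9 in accumbens, above Hsp90aa1 at 236 ± 43.7 and 219 ± 20.2. Of the 50-base windows of Hsp90aa1's transcripts, 58.5% also occur in other genes, against 4.49% for Hsp90ab1, and reads from such windows may go uncounted.

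Among the HSP70 genes of the cytosol, the constitutive Hspa8 (chr9:40800984-40810087, plus strand), whose protein strips clathrin from vesicles, was far above the rest. It had 999, 1044, 1059 and 869 CPM in dorsal libraries and 1029, 1027, 944 and 1029.9 CPM in accumbens libraries. The regions overlapped, with a log2 fold change of 0.02 ± 0.11 (95% interval -0.20 to 0.25; edgeR adjusted p = 0.962). Its level of 231 ± 20.1 CPM per kilobase in dorsal striatum and 234 ± 9.87 in accumbens was within the spread of Hsp90aa1's. Since 73.2% of its 50-base windows also occur in other genes, that level is uncertain. Per kilobase of the longest transcript's windows found in no other gene, Hspa8 ranked first, at 1559.8 CPM over all libraries against 829 for Hsp90ab1. That count also changed its length, from 4301 exon bases to a transcript of 2394. Hspa2, a further HSP70 of the cytosol, had 27.0, 31.5, 40.1 and 30.7 CPM in dorsal and 41.0, 51.4, 49.8 and 30.5 CPM in accumbens libraries, with a log2 fold change of 0.42 ± 0.23 (95% interval -0.07 to 0.91). The regions overlapped, and Hspa14, which works at the ribosome, averaged 15.4 ± 4.70 and 18.1 ± 3.95 CPM.

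The heat-inducible HSP70 genes received few counts. Hspa1a received 25, 20, 5 and 2 counts in dorsal libraries and 15, 29, 7 and 26 counts in accumbens libraries, or at most 2.96 CPM. Hspa1b, its near-identical neighbour with the same printed promoter bases, received 1, 1, 3 and 0 and 1, 1, 1 and 1 counts. They share 60.4% and 62.3% of their 50-base windows with other genes, chiefly each other, so their levels are uncertain, and the interval of Hspa1a's log2 fold change ran from -1.83 to 2.09. Hspa1l, which overlaps an exon of a gene on the opposite strand, had 5.56, 6.68, 13.1 and 10.1 CPM in dorsal and 4.40, 1.11, 10.4 and 1.74 CPM in accumbens libraries. These values overlapped and scattered widely, and whether the counting used strand is not stated.

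The HSP110 proteins exchange the nucleotide of HSP70. Hsph1, the most abundant of them, had 1134, 1123, 1442 and 837 CPM in dorsal libraries and 1096, 1105, 1079 and 1052 CPM in accumbens libraries. The accumbens values were close together and the dorsal ones enclosed them, with dorsal 3 highest and dorsal 4 lowest, and the log2 fold change was -0.07 ± 0.14 (95% interval -0.35 to 0.22; edgeR adjusted p = 0.888). Hspa4 had the same shape, with 487, 580.2, 671 and 378 CPM in dorsal and 475, 533, 511 and 537 CPM in accumbens libraries and a log2 fold change of -0.04 ± 0.15 (95% interval -0.36 to 0.27). Per kilobase, Hsph1 stood at 156 ± 34.0 and 149 ± 3.22 CPM, and Hspa4 at 95.7 ± 22.7 and 93.0 ± 5.14. Hspa4l, their relative, averaged 168 ± 14.1 and 154 ± 8.02 CPM.

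Hspa12a (chr19:58795750-58943654, minus strand), a distant relative of HSP70, was one of 4 members whose regions did not overlap (6.90% of 58, against 9.69% of all tested genes). It had 364, 370.4, 413 and 443 CPM in dorsal libraries and 348, 257, 313 and 318 CPM in accumbens libraries. Every accumbens value lay below every dorsal one, but the gene was not called, at a log2 fold change of -0.36 ± 0.13 (95% interval -0.64 to -0.09; edgeR adjusted p = 0.157). An exon of it overlaps a gene on the opposite strand. Hspa12b, its rarer paralog, had 8.87, 12.5, 3.46 and 11.4 CPM and 14.5, 2.22, 4.66 and 17.5 CPM, with overlapping and scattered values.

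Of the J-domain proteins of the cytosol, Dnajb4 (chr3:152178511-152210302, minus strand), a class B partner of HSP70, came nearest to the threshold. It had 208, 171, 269 and 250.4 CPM in dorsal libraries and 158, 168, 139.7 and 143 CPM in accumbens libraries. All 4 accumbens values lay below all 4 dorsal values, although dorsal 2 and accumbens 2 nearly met. The means were 225 ± 44.1 and 152 ± 13.4 CPM, and the log2 fold change was -0.56 ± 0.15 (95% interval -0.88 to -0.24; edgeR adjusted p = 0.0522). The call depended on the setting: the adjusted p was 0.0151 with DESeq2, 0.0247 without a filter on low counts, 0.0204 without dorsal 2 and 0.0463 after thinning to equal depth, and it ranged up to 0.409 over the 17 alternatives. The fold change was negative in all 17, from -0.67 to -0.41.

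**Figure D3:**
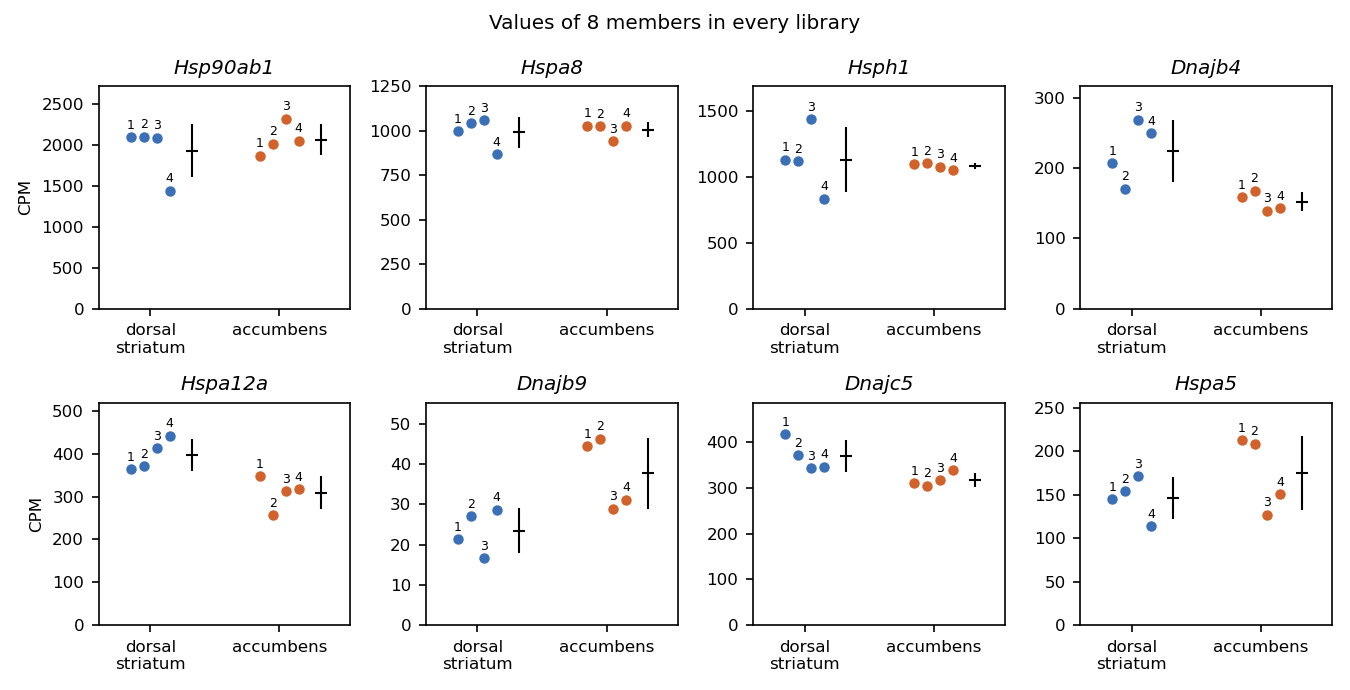
CPM (y axes, each from 0) of 8 members in every library (points, numbered by replicate), with the mean and SD of 4 libraries beside them. Dnajb4, Hspa12a and Dnajc5 lie lower and Dnajb9 higher in accumbens with no overlap, while Hsp90ab1, Hspa8, Hsph1 and Hspa5 overlap.

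The other class A and B members of the cytosol overlapped between regions. Dnaja1, a class A partner of HSP70, had 289, 313, 347 and 209 CPM in dorsal and 259, 229.6, 259 and 224 CPM in accumbens libraries. Its log2 fold change was -0.25 ± 0.15 (95% interval -0.57 to 0.06), and 3 genes overlap its exons. Dnaja2, the class A member of the highest level per kilobase, had 213, 212, 227 and 187 CPM and 206, 198, 155 and 192 CPM, a log2 fold change of -0.16 ± 0.14. Dnajb1, the heat-inducible HSP40, was well expressed, with 96.1, 121, 145 and 91.3 CPM in dorsal and 98.7, 117, 91.1 and 79.9 CPM in accumbens libraries and a log2 fold change of -0.23 ± 0.18 (95% interval -0.61 to 0.15). Dnajb6, which keeps polyglutamine proteins from aggregating and whose promoter holds the 3-unit heat shock element printed above, averaged 82.2 ± 12.3 and 75.3 ± 7.83 CPM. Dnajb5 averaged 94.7 ± 4.97 and 75.4 ± 15.8 CPM, Dnaja4 34.7 ± 1.38 and 40.1 ± 5.44, and Dnajb2, a neuronal form that links to the proteasome, 34.5 ± 6.89 and 35.9 ± 3.63. Of these 8 tested class A and B genes 6 had a negative and 2 a positive log2 fold change, with a median of -0.19.

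Among the J-domain proteins of vesicles and endosomes, Dnajc5, the cysteine string protein of synaptic vesicles, had 418, 373, 344 and 347 CPM in dorsal libraries and 311, 305, 318 and 339.5 CPM in accumbens libraries. The accumbens values all lay lower, though dorsal 3 and accumbens 4 were almost equal, and the gene was not called (log2 fold change -0.22 ± 0.12; 95% interval -0.47 to 0.03; edgeR adjusted p = 0.420). Dnajc6, auxilin, which brings Hspa8 to clathrin coats, had 289, 297, 198 and 245 CPM in dorsal and 257, 357, 277 and 267 CPM in accumbens libraries. Its regions overlapped, with a log2 fold change of 0.17 ± 0.15 (95% interval -0.15 to 0.49). Per kilobase, Dnajc5 at 53.3 ± 4.93 and 45.8 ± 2.16 CPM and Dnajc6 at 43.5 ± 7.69 and 49.0 ± 7.70 did not differ beyond their spread in accumbens. Dnajc13, an endosomal protein, averaged 92.5 ± 9.91 and 99.0 ± 18.3 CPM, and Dnajc27, which joins a J domain to a small GTPase, 98.6 ± 18.8 and 107 ± 20.5. All 4 intervals of these vesicle and endosome genes lay within 1.5-fold.

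Among the ER chaperones positive estimates outnumbered negative ones, and none was called. Of 13 tested, 11 had a positive and 2 a negative log2 fold change, with a median of 0.22. Dnajb9 (chr12:44205559-44210326, minus strand), a J-domain partner of BiP, had 21.3, 27.2, 16.6 and 28.7 CPM in dorsal libraries and 44.4, 46.3, 28.9 and 31.2 CPM in accumbens libraries. Every accumbens value was above every dorsal one, and the log2 fold change was 0.68 ± 0.26 (95% interval 0.14 to 1.23; edgeR adjusted p = 0.191). A gene on the opposite strand overlaps its exons. Hspa5, BiP itself, the HSP70 of the ER, had 145, 154, 171 and 114 CPM in dorsal and 213, 209, 127 and 150.4 CPM in accumbens libraries. Accumbens 1 and 2 were above all dorsal libraries while accumbens 3 and 4 lay among them, giving a log2 fold change of 0.26 ± 0.18 (95% interval -0.12 to 0.64).

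Hsp90b1, the HSP90 of the ER, was the most abundant ER member, with 399, 386, 467 and 303 CPM in dorsal and 429.5, 461, 368 and 381 CPM in accumbens libraries. Its regions overlapped (log2 fold change 0.08 ± 0.14; 95% interval -0.22 to 0.37), and per kilobase its 96.4 ± 16.7 and 102 ± 10.8 CPM did not differ from Hspa4 beyond their spread. Dnajc3, which links BiP to the control of translation and is the third gene with the ER stress element printed above, averaged 29.5 ± 3.74 and 35.5 ± 9.19 CPM, with overlapping values. Dnajb11, a soluble J-domain partner of BiP, averaged 37.9 ± 10.3 and 39.8 ± 18.7 CPM, and Dnajc10, a reductase of disulfide bonds, 49.3 ± 9.36 and 47.3 ± 5.93. The remaining ER members ran from Dnajc18 at 134 ± 8.88 and 143 ± 23.1 CPM down to Dnajc25 at 1.83 ± 1.11 and 1.05 ± 1.57, and their log2 fold changes from -0.80 in Dnajc25 to 0.66 in Dnajc16.

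In mitochondria, Hspd1, the chaperonin HSP60, had 351, 308, 427 and 288 CPM in dorsal and 329.7, 275, 283 and 327 CPM in accumbens libraries. The regions overlapped, with a log2 fold change of -0.18 ± 0.14 (95% interval -0.47 to 0.12), and 44.8% of its 50-base windows occur in other genes. Its co-chaperonin Hspe1 had 48.5, 39.0, 37.2 and 45.8 CPM in dorsal and 48.3, 51.5, 44.2 and 53.5 CPM in accumbens libraries. This pair lies head to head with overlapping annotated ends, and Hspe1's log2 fold change was 0.21 ± 0.19 (95% interval -0.20 to 0.62). Hspa9, the mitochondrial HSP70, had 211, 213, 263 and 207 CPM in dorsal and 204, 216, 164 and 201 CPM in accumbens libraries. Dorsal 3 stood above the rest, the regions overlapped, and the log2 fold change was -0.19 ± 0.14 (95% interval -0.48 to 0.10). Dnaja3, its J-domain partner, averaged 43.9 ± 6.60 and 49.1 ± 15.9 CPM. Over the 10 mitochondrial members, 6 log2 fold changes were positive and 4 negative, with a median of 0.12.

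The other class C genes have J domains attached to varied functions. Dnajc7, which binds HSP70 and HSP90 together, had 201, 169.5, 200.2 and 199 CPM in dorsal and 171, 161, 140.2 and 194 CPM in accumbens libraries, and Dnajc8, a splicing factor, 113, 84.8, 103 and 126 and 81.2, 63.2, 115 and 98.1 CPM. Both overlapped between regions, with log2 fold changes of -0.21 ± 0.14 and -0.25 ± 0.19. Dnajc24, which serves the making of diphthamide on elongation factor 2, had the largest positive estimate of the tested members on few reads, with 3.31, 4.67, 1.38 and 3.84 CPM in dorsal and 5.74, 22.4, 11.1 and 3.31 CPM in accumbens libraries. Accumbens 2 was far above the rest while accumbens 4 lay among the dorsal values, so the regions overlapped, and the log2 fold change of 1.68 ± 0.60 (95% interval 0.42 to 2.94) was not called (edgeR adjusted p = 0.157). A gene on the opposite strand overlaps its exons. Dnajc12, a partner of the aromatic amino acid hydroxylases, had 9.82, 6.26, 5.12 and 3.84 and 8.16, 0.768, 7.75 and 3.23 CPM, scattered in both regions. Dnajc2, which sits on the ribosome, averaged 138 ± 15.6 and 114 ± 5.25 CPM, and the histone chaperone Dnajc9 52.8 ± 6.45 and 61.4 ± 9.94.

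The small heat shock proteins with Hspb symbols had low counts. Cryab, a relative with another symbol, is outside the rule. Hspb6 had 9.70, 10.1, 6.78 and 15.1 CPM in dorsal and 9.51, 13.7, 10.2 and 7.62 CPM in accumbens libraries, and Hspb11, a part of the ciliary transport complex, 6.15, 3.71, 10.2 and 6.11 and 6.01, 2.30, 3.48 and 8.03 CPM. Both overlapped between regions, and they were the 2 of 8 Hspb genes with enough reads to be tested. Hspb1, or HSP27, one of the most strongly heat-inducible genes and a carrier of the 2-unit element in the promoter printed above, received 0, 2, 0 and 0 counts in dorsal and 7, 0, 0 and 10 counts in accumbens libraries. Reads were thus seen in dorsal 2, accumbens 1 and accumbens 4 alone.

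Members that were not tested numbered 12, and none exceeded 3.33 CPM in any library. They are Dnajb3, Dnajb7, Dnajb8, Dnajb13, Dnajc22, Hspa1b, Hspb1, Hspb2, Hspb3, Hspb7, Hspb8 and Hspb9. Dnajb8, Dnajc22, Hspb2 and Hspb9 were at 0 in all 8 libraries, where a count of 0 allows up to 0.237 to 0.415 CPM (3 counts per library, counting error only). The 3.33 CPM was Dnajb3 in accumbens 2, with 4, 8, 2 and 11 counts in dorsal and 7, 39, 0 and 1 in accumbens libraries.

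Within the dorsal striatum, a part of the abundant chaperones differed together between libraries 3 and 4. Of the 26 members averaging 50 CPM or more, dorsal 3 was the highest dorsal library in 15 (57.7%, against 32.6% of the 3704 genes of that abundance) and dorsal 4 the lowest in 12 (46.2%, against 26.4%). Both held for 11 (42.3%, against 11.4%): Dnaja1, Dnaja2, Dnajb1, Hsp90aa1, Hsp90b1, Hspa4, Hspa5, Hspa8, Hspa9, Hspd1 and Hsph1. These span the cytosol, ER and mitochondria and include the heat-inducible Dnajb1, Hsph1 and Hsp90aa1. Of the 4 members with the 3-unit heat shock element, Hspd1 and Hsph1 are among the 11. The other carriers, Dnajb6 and the rarer Hspe1, were lower in dorsal 3 than in dorsal 4, at ratios of 0.885 and 0.812. The heat-inducible Hspa1a, on few counts, was highest in dorsal 1, at 2.96 CPM against 0.692 CPM in dorsal 3. The ratio of dorsal 3 to dorsal 4 among the 11, above 1 by the way they were chosen, ran from 1.21 in Dnaja2 to 1.77 in Hspa4. Among the rest of the 26, which include every class C gene of that abundance, it ran from 0.809 in Dnajc6 to 1.45 in Hsp90ab1. The ratio of the highest to the lowest accumbens library among the 11 ran from 1.05 in Hsph1 to 1.68 in Hspa5, and it exceeded the dorsal ratio in Hspa5, Dnaja2 and Hspa9. In total, members took 1.12% of gene counts in dorsal 3 (95% Wilson interval 1.11% to 1.13%) and 0.858% in dorsal 4 (0.853% to 0.864%), and 0.994% to 1.04% in the accumbens libraries. The intervals cover counting error only.

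**Figure D4:**
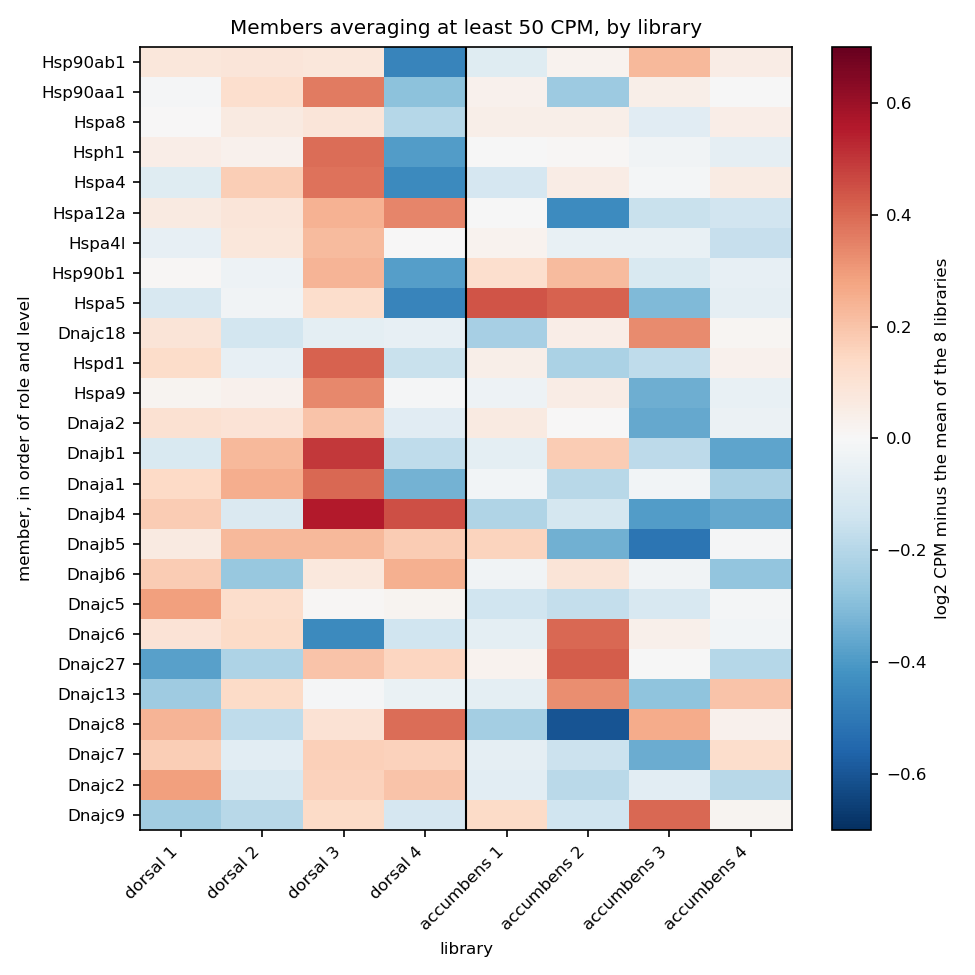
Log2 CPM minus the mean of the 8 libraries (colour) for the 26 members averaging 50 CPM or more (rows, by role and level) in each library (columns; the black line parts the regions). Dorsal 3 is the highest and dorsal 4 the lowest dorsal library in 11 of the 26 rows.

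The pattern was chosen after the values were seen and carries no test. Dorsal 3 had the fewest gene counts, 7466970, and dorsal 4 the most of its region, 10363145. The mean centred log2 level of 13 glial markers was -0.25 in dorsal 3 and -0.99 in dorsal 4, the lowest of all libraries. Their part in the pattern was not tested.

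Beyond the members, 89 genes of the wider chaperone system were listed, and 86 were tested. Of these 86, 0 were called higher and 1 lower in accumbens, where 3.72% of all tested genes were called. An unadjusted p under 0.05 was found for 7 of them, where 14.8% of all tested genes had one, and the median log2 fold change was 0.04. The gene called was Atf6, the ER membrane sensor whose released fragment acts at the ER stress element. It had 271, 275, 267 and 265 CPM in dorsal libraries and 156, 172, 213 and 189 CPM in accumbens libraries. The dorsal values were tight and all above the accumbens ones, and Atf6 fell by 0.56 on the log2 scale in accumbens (SE 0.13; 95% interval -0.84 to -0.28; edgeR adjusted p = 0.0195). The call was lost with the glial markers as a covariate (adjusted p = 0.108), without dorsal 1 (0.0562), dorsal 2 (0.0566), accumbens 1 (0.0820) or accumbens 2 (0.0554), and without dorsal 3 and accumbens 2 together (0.0847). With each single library left out, the estimate stayed between -0.64 and -0.49. The lower projection neuron and higher D2 neuron marker sums of the accumbens libraries, given above, run along with the regions, and their part in it was not tested.

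Among the 20 ER folding genes with Atf6, 9 log2 fold changes were positive and 11 negative, where the ER members had 11 and 2, and the difference was not tested. Hyou1, an exchange factor for BiP, had a log2 fold change of 0.04 ± 0.17, and Xbp1, a transcription factor of the ER stress response, -0.41 ± 0.23. None of the 5 tested genes of the HSF and stress regulator list was called, and Hsf1, the heat shock transcription factor, averaged 45.7 ± 10.5 and 44.1 ± 8.79 CPM (log2 fold change -0.05 ± 0.23; 95% interval -0.54 to 0.44). In the list of 13 exchange factors and partners of HSP70, none was called. Bag1, which releases nucleotide from HSP70, had 122, 91.0, 76.6 and 95.7 CPM in dorsal and 131, 140.2, 122 and 151 CPM in accumbens libraries. Its accumbens values were all higher, though dorsal 1 and accumbens 3 nearly met (log2 fold change 0.50 ± 0.16; edgeR adjusted p = 0.118). No gene was called among the 18 partners of HSP90, where Stip1, which joins HSP70 to HSP90, stood at 0.11 ± 0.17, the 15 tested subunits of the TRiC chaperonin and prefoldin, or the 10 mitochondrial folding factors and proteases. The list of 6 J-domain or small heat shock relatives outside the rule, which holds Cryab, had 5 tested and 0 called.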

How the data were processed

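Ribosome-bound RNA was immunopurified from 2 striatal regions, and the title of each of the 8 libraries gave its region. The deposited tables hold unnormalized read counts, 1 per gene symbol. Per the submitters' processing notes, the authors aligned reads to mm10 with STAR 2.0.0e and used HTSeq for counting. The annotation, strand setting and read filters of the counting are not given in the sources used here. Rows for unassigned reads, 27.1% to 33.8% of dorsal and 35.5% to 40.6% of accumbens libraries, were left out.

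Differences between regions were tested over all genes by the quasi-likelihood F test of edgeR 4.0.16 (R 4.3.3; TMM scaling; filterByExpr with a minimum count of 10), with Benjamini-Hochberg adjustment over 12467 genes and a threshold of 0.05. The script was tested on simulated data. The standard error comes from the log2 fold change and its F statistic. CPM uses TMM-scaled totals, and log2 CPM a prior count of 2. Exon lengths, positions and 50-base windows shared between genes come from GENCODE M21 (GRCm38, the coordinates of mm10, 1-based), in which 27 of the 70 members share exon bases with another gene, in 24 cases on the opposite strand. Promoters come from RefSeq (GRCm38.p6). Libraries of a region differed by more than sampling noise, so they are not copies of one another, and each was counted as 1 sample. Whether they came from separate animals is not stated.

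The members, role groups and lists were chosen with earlier results of these data known. The rule for named members took those called or not overlapping between regions, the 12 of the highest mean CPM, the 2 of the highest CPM per kilobase in each role, the 3 of the largest spread within a region at 5 CPM or more, and 6 heat-inducible or marker genes. Other members and Hyou1, Xbp1, Hsf1, Bag1 and Stip1 were named for their known roles or after their values were seen. Alternatives were RLE normalization, no filter, a filter of 1 CPM in 4 libraries, DESeq2 1.42.0, limma-voom (limma 3.58.1) with sample weights, a block for replicate number, a glial marker covariate, each library left out, and dorsal 3 and accumbens 2 left out together. Thinning to equal depth and levels per unique kilobase were added after seeing the data.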

Additional observations from a re-analysis of the deposited data

Results flagged for a closer look

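Over 56 sets of 4 libraries of named members, 6 held a library whose gap to its nearest neighbour exceeded Dixon's 95% critical value of 0.829 as a share of the set's log2 range. Independent sets of normally distributed values would give about 1 in 20. The sets here all come from the same 8 libraries, so that rate does not measure chance for them. In the dorsal striatum, Hsp90ab1 had a gap share of 0.986, with dorsal 4 at 1438 CPM and the others at 2088 to 2099 CPM. Hspa9 had 0.889, with dorsal 3 at 263 CPM and the others at 207 to 213 CPM. Dnajc7 had 0.935, with dorsal 2 at 169.5 CPM and the others at 199 to 201 CPM. Hspb1 had 1, since dorsal 2 alone had any counts (2). In accumbens, Hspa8 had 0.970, with accumbens 3 at 944 CPM and the others at 1027 to 1029.9 CPM, and Hsp90aa1 had 0.846, with accumbens 2 at 745 CPM and the others at 886 to 914 CPM.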

How the results depend on the processing

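No member was called higher under any alternative run, and 1, Dnajb4, was called lower without a filter, with DESeq2 and after thinning (0 to 1 with each library left out, where it was called only without dorsal 2). Among the other chaperone system genes, 1 was called higher without a filter and with DESeq2, and 0 lower with the glial covariate and with dorsal 3 and accumbens 2 left out (0 to 1 with each library left out). Over all genes, 200 were called higher and 264 lower. Without a filter 350 were called higher, and DESeq2 called 375 higher and 763 in both directions together. With the glial covariate 103 were called higher and 142 lower. Leaving Rn45s, Lars2 and AK140265 out of the totals put the members' share at 1.05% ± 0.121 in dorsal libraries and at 1.10% ± 0.0225 in accumbens libraries (mean ± SD over 4).

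Of 442 log2 fold changes of 26 named members under 17 alternatives, 409 kept their sign. The 33 others belong to uncalled members and remained uncalled. Without dorsal 3 and accumbens 2 they were -0.052 for Dnajc6, 0.072 for Hsp90aa1, -0.37 for Hspa1a, 0.075 for Hspa4, 0.13 for Hspb11 and 0.060 for Hsph1. With the glial covariate they were -0.033 for Hsp90b1, -0.21 for Hspa12b, -0.53 for Hspa1a, -0.064 for Hspa8 and 0.18 for Hspb6, and with limma-voom -0.012 for Hspa12b and -0.16 for Hspa1a. With each library left out the ranges were -0.68 to 0.024 for Dnajc12, -0.21 to 0.0077 for Hsp90aa1, -0.022 to 0.14 for Hsp90ab1, -0.026 to 0.18 for Hsp90b1, -0.35 to 0.43 for Hspa12b, -0.24 to 0.69 for Hspa1a, -0.17 to 0.093 for Hspa4, -0.038 to 0.055 for Hspa8, -0.20 to 0.21 for Hspb6 and -0.19 to 0.070 for Hsph1. The cause was not tested.

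Deviations of same-numbered libraries correlated between -0.08 and 0.01 over genes, and those of differently numbered libraries between -0.13 and 0.11. Such values cannot show whether same-numbered libraries came from the same animals, and the labels do not say. With the replicate block, 0 members were called, 194 genes were called higher and 238 lower, and the log2 fold changes of Hspa12b and Hspb6 became -0.085 and 0.0079. Reads that fit several genes and few counts limit Hspa1a, Hspa1b, Hspb1 and the other rare members most.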

Other observations

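Members differed in level among the accumbens libraries. In 15 of the 58 tested members (25.9%, against 15.9% of all tested genes) and in 10 of the 26 averaging 50 CPM or more (38.5%, against 17.1% of genes of that abundance), accumbens 1 and 2 were both above accumbens 3 and 4. The ER members with this order were 6 of 13 (46.2%). Among them, Hspa5 had 213 and 209 CPM in the first pair and 127 and 150.4 CPM in the second, Hsp90b1 429.5 and 461 against 368 and 381 CPM, and Dnajb9 44.4 and 46.3 against 28.9 and 31.2 CPM. Dnajb11, Dnajb12 and Dnajb14 had the same order. The pattern was chosen after the values were seen and carries no test, and its source was not tested.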
